A study of Mus musculus with 12 samples.

Results

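Transcripts of 9 mouse genes for water, ion and mechanosensory channels and a pump subunit of the urothelium were followed in 12 RNA sequencing libraries of NU1 cells. The genes were chosen by name: Aqp3, Scnn1a, Scnn1b, Scnn1g, Piezo1, Piezo2, Trpv4, Slc14a1 and Atp1b1. All 9 were found among the 23337 genes of the deposited count table, Piezo1 and Piezo2 under the older symbols Fam38a and Fam38b. NU1 is a single line of normal mouse urothelial cells that was immortalised by passaging alone. Its cultures were either proliferating or made quiescent by confluence followed by rosiglitazone at 1 µM, an agonist of the nuclear receptor PPAR gamma, and erlotinib at 0.5 µM, an inhibitor of the EGF receptor kinase. In each state the cells carried the control hairpin shNT or the hairpin sh4 against Stag2, a subunit of the cohesin ring, both given by lentivirus. This gave 4 groups of 3 libraries: proliferating control, proliferating knockdown, quiescent control and quiescent knockdown. The quiescent cells are labelled day 7. Every group was grown in medium with EGF, insulin, hydrocortisone, cholera toxin and thyroid hormone, and its genotype is given as wild type. Each group has 1 library from experiments 5, 7 and 9, and each experiment is a batch in the labels. With 1 hairpin against Stag2, loss of Stag2 and any other effect of that hairpin cannot be told apart, and quiescence cannot be told apart from confluence or from either drug.

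The urothelium lines the bladder and holds back water, salts and urea while it stretches. The epithelial sodium channel ENaC lets sodium in across the apical membrane and is built of alpha, beta and gamma subunits, encoded by Scnn1a, Scnn1b and Scnn1g. The sodium pump moves that sodium out across the basolateral membrane, and its beta subunit, here Atp1b1, is needed for the pump to reach the surface. Piezo1 and Piezo2 are channels opened by membrane tension, and Trpv4 is a calcium-permeable channel opened by swelling, warmth and lipid messengers. All 3 have been linked to the sensing of bladder filling, in which stretched urothelial cells release ATP. Aqp3 is a basolateral channel for water and glycerol, and Slc14a1 is the facilitative urea transporter UT-B.

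Library totals ran from 14524429 to 21987539 counts. Levels below are CPM, counts scaled by each library's total and its TMM factor, and intervals on counts cover counting error only. Intervals on log2 fold changes come from the model without a term for experiment. Where groups are said not to overlap or to lie above one another, the share of all genes that separate in this way was not counted. Stag2 was at 107 to 145 CPM in the 6 control libraries and at 9.43 to 33.3 CPM in the 6 with sh4, so every library followed its hairpin label. Of 21 urothelial and epithelial markers, the keratins Krt7, Krt8, Krt18, Krt19 and Krt20 and the adhesion genes Cdh1 and Epcam were at 391 CPM or more in every library. Elf3 was at 77.3 to 518 CPM, Gata3 at 26.5 to 118 CPM and Foxa1 at 9.49 to 84.8 CPM. The other markers of the labelled cell type were scarce or absent. Krt5, Krt14, Krt15, Upk1a, Upk1b, Upk2, Upk3b, Grhl3 and Pparg were at or below 10.6 CPM, the highest value of Krt14. The basal factor Trp63 had 0 counts in all libraries, and the uroplakin gene Upk3a had at most 1. The summed markers of fibroblasts stayed at or below 2.27 CPM, of smooth muscle at or below 0.835 CPM, of endothelium at or below 0.238 CPM, and of neurons and glia at or below 2.32 CPM. Leukocyte markers summed to 1.67 to 9.72 CPM, nearly all from the lysosomal gene Cd68, with Cd3e at 0.

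The 250 bases before the annotated start are shown for Atp1b1, Trpv4 and Piezo1, the genes described most closely that have a window in the RefSeq promoter table (GRCm38.p6), so that the sequence can be read beside the values. Each is given 5′ to 3′ on the gene's own strand, with matches to the searched motifs in capitals.
Atp1b1, chr1:164458356-164458605, minus strand: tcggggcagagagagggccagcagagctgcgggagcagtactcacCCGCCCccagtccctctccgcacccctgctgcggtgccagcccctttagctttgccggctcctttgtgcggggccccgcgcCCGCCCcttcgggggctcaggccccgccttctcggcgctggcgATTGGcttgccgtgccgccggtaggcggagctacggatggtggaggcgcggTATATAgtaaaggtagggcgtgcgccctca
Trpv4, chr5:114658422-114658671, minus strand: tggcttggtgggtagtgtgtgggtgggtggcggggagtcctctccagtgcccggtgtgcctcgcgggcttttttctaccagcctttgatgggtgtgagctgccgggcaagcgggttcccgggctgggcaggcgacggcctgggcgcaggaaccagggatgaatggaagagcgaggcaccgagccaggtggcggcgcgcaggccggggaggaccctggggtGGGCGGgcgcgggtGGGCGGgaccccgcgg
Piezo1, chr8:122551330-122551579, minus strand: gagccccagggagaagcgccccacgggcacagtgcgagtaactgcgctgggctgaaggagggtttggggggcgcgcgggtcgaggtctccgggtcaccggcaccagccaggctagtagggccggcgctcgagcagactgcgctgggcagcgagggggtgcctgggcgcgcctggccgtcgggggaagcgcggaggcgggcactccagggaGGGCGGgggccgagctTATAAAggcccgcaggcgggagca
The motifs were searched on both strands: CCAAT, found in 33.8% of the 32851 mouse windows of this length, GGGCGG in 32.7%, TATAAA in 12.4%, TATATA in 5.25%, AGGTCA in 14%, AGAACA in 16.1% and TTTGAA in 16%. Atp1b1 held GGGCGG at 205 and 124 bases before the start, CCAAT at 81 and TATATA at 30. Trpv4 held GGGCGG at 30 and 16 bases before the start and none of the other motifs. Piezo1 held GGGCGG at 40 bases and TATAAA at 24 bases before the start. None of the 3 windows held AGGTCA, found in nuclear receptor sites, nor AGAACA, found in glucocorticoid receptor sites, nor TTTGAA, found in promoters of cell cycle genes. A match, or the lack of one, says nothing about binding. Of the 9 genes, 6 have a window in that table.

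Quiescence was compared first, in control and in knockdown cells. The sodium pump subunit Atp1b1, the ENaC alpha subunit Scnn1a and the channel Trpv4 rose in both, and no listed gene fell past the threshold unless the experiment was in the model, where Aqp3 did in control cells. Relative to the scaled library totals, Atp1b1 rose by about an order of magnitude, and Scnn1a and Trpv4 by factors close to 2. Of the 9 genes, 5 had enough counts to be tested (Aqp3, Scnn1a, Piezo1, Trpv4 and Atp1b1), and 3 of the 5 passed an adjusted p of 0.05 (edgeR quasi-likelihood test, Benjamini-Hochberg over 12406 genes) in each contrast. Against that, 20.0% of all tested genes passed in control cells, 8.33% higher and 11.7% lower, and 18.4% in knockdown cells, 7.59% higher and 10.8% lower. With a term for experiment in the model, 35.3% and 33.0% of all genes passed. The libraries are RNA of whole cultures, so fewer expressing cells and less RNA per cell cannot be told apart.

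Atp1b1 (chr1:164437109-164458355, minus strand, GRCm38) had 7.85, 13.4 and 14.4 CPM in the proliferating controls of experiments 5, 7 and 9, and 140, 94.1 and 177 CPM in the quiescent controls. In knockdown cells it went from 8.22, 15.1 and 34.5 CPM while proliferating to 224, 99.1 and 310 CPM in quiescence. Every quiescent library lay above every proliferating one, and among quiescent cells experiment 7 was lowest with either hairpin. The group means were 11.9 ± 3.55 and 137 ± 41.4 CPM with the control hairpin, and 19.3 ± 13.6 and 211 ± 106 CPM with sh4 (SD, n = 3). The log2 fold change was 3.52 (SE 0.55, 11.5-fold, adjusted p = 0.00153) in control cells and 3.45 (SE 0.55, 11.0-fold, adjusted p = 0.00199) in knockdown cells. In knockdown cells the value for Atp1b1 ran from 3.07 to 4.18 without single libraries, the highest without the proliferating library of experiment 9. The difference between the hairpins, tested as the interaction of knockdown and state, was -0.07, with a 95% interval from -1.63 to 1.49. On the opposite strand, Nme7 shares 575 of the 3081 exon bases of Atp1b1. The log2 fold change of Nme7 was -0.35 (SE 0.16, adjusted p = 0.136) in control cells and -0.50 (SE 0.16, adjusted p = 0.0491) in knockdown cells. The part of Nme7 in the Atp1b1 counts was not tested.

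Scnn1a (chr6:125320659-125344943, plus strand) had 119, 181 and 106 CPM in proliferating controls and 298, 394 and 291 CPM in quiescent controls. With sh4 it had 129, 198 and 157 CPM while proliferating and 356, 286 and 347 CPM in quiescence. The states did not overlap with either hairpin. Experiment 7 was the highest in 3 groups and the lowest among quiescent knockdown libraries. The log2 fold change with quiescence was 1.27 (SE 0.23, 2.42-fold, adjusted p = 0.00294) in control cells and 1.03 (SE 0.22, 2.05-fold, adjusted p = 0.00943) in knockdown cells. The interaction was -0.24, with a 95% interval from -0.93 to 0.45.

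The other ENaC subunits were almost undetected (Scnn1b at chr7:121865038-121918514 and Scnn1g at chr7:121734479-121768475, both on the plus strand). Scnn1b had 0, 1 and 1 counts in proliferating controls, 0 in every proliferating knockdown library, 2, 1 and 6 counts in quiescent controls and 1, 2 and 2 counts in quiescent knockdown cells. Scnn1g had 0 counts in all 6 proliferating libraries, 1, 3 and 7 counts in quiescent controls and 1, 0 and 2 counts in quiescent knockdown cells. Both subunits were thus seen mainly in quiescence, at up to 7 counts per library. Neither passed the filter on low counts. In a fit of all 17575 genes with any count, Scnn1g in quiescent against proliferating controls had an adjusted p of 0.0669, and Scnn1b had 0.243. In proliferating knockdown cells, where both had 0 counts, Scnn1b and Scnn1g were at least 2045-fold and 2361-fold lower than Scnn1a per kilobase of transcript, against a floor of 3 counts summed over the 3 libraries.

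Trpv4 (chr5:114622152-114658421, minus strand) had 195, 172 and 121 CPM in proliferating controls and 376, 316 and 268 CPM in quiescent controls. With sh4 it had 216, 202 and 201 CPM while proliferating and 414, 373 and 363 CPM in quiescence. Experiment 5 was the highest and experiment 9 the lowest in every group. The rise with quiescence had nearly the same size in each of the 6 pairs of libraries, from 0.85 to 1.15 on the log2 CPM scale. The fitted log2 fold change was 0.98 (SE 0.18, 1.97-fold, adjusted p = 0.00333) in control cells and 0.89 (SE 0.18, 1.86-fold, adjusted p = 0.00584) in knockdown cells. The interaction was -0.08, with a 95% interval from -0.63 to 0.46.

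**Figure D1:**
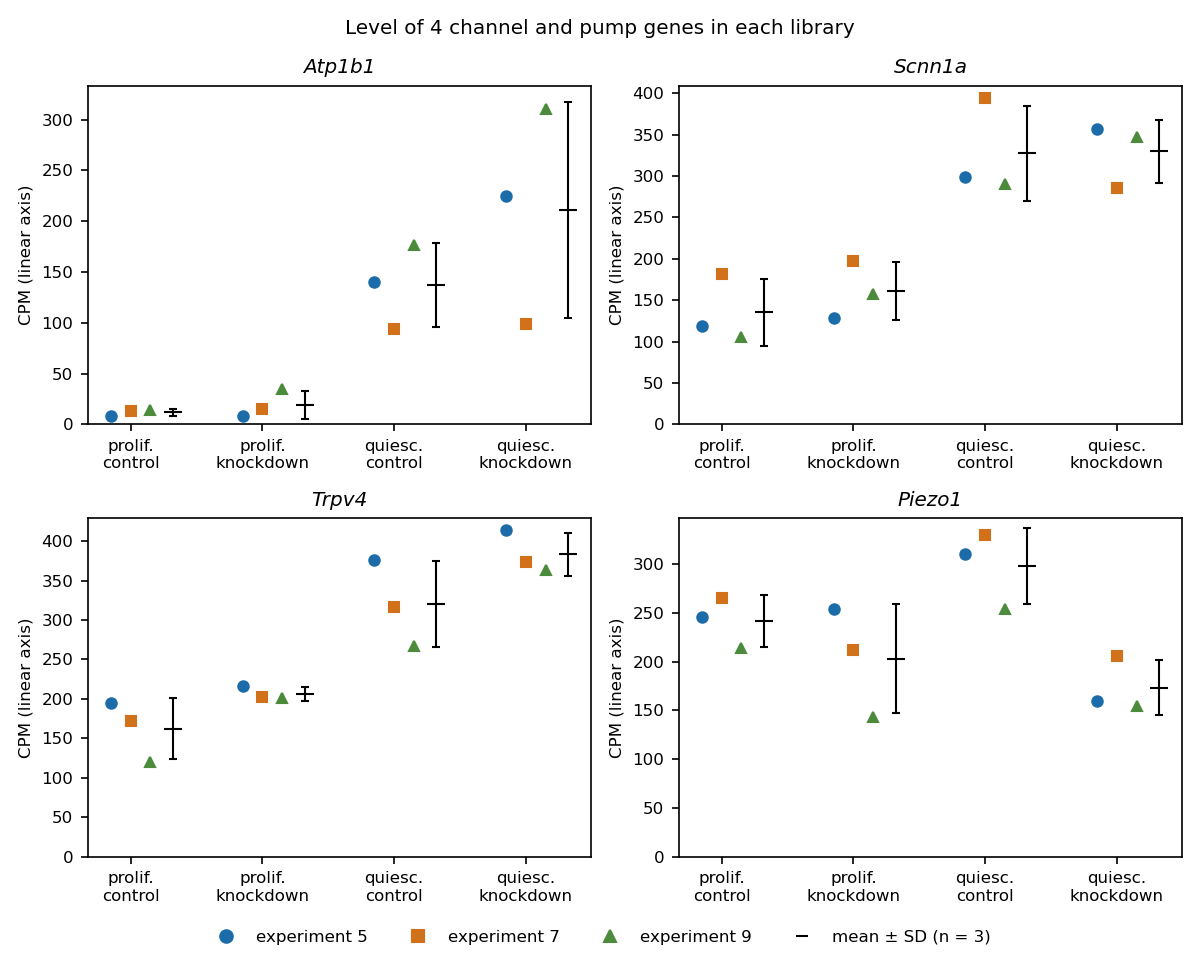
CPM of Atp1b1, Scnn1a, Trpv4 and Piezo1 in each of the 12 libraries on linear axes from 0, by group, with the experiment as colour and shape and the mean ± SD of 3 libraries as a bar. The quiescent libraries lie above the proliferating ones for Atp1b1, Scnn1a and Trpv4, and the quiescent knockdown libraries lie below the quiescent controls for Piezo1.

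Knockdown of Stag2 was compared next, within each state. In quiescent cells Piezo1 was lower with sh4, a call that depends on the model, and no other listed gene passed in either state under any model run. Among all genes, 0.0242% passed in proliferating cells with or without a term for experiment. In quiescent cells 0.435% passed without that term and 3.55% with it. The listed genes had 0 of 5 past the threshold in proliferating cells, and in quiescent cells 0 of 5 without the term and 1 of 5 with it.

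Piezo1 (chr8:122481698-122551329, minus strand) had 311, 330 and 255 CPM in quiescent controls and 160, 206 and 154 CPM in quiescent knockdown cells. The groups did not overlap, a pattern whose share among all genes was not counted. The difference within experiments 5, 7 and 9 was -0.96, -0.68 and -0.72 on the log2 CPM scale. The means were 298 ± 39.1 and 173 ± 28.1 CPM (SD, n = 3). The fitted log2 fold change was -0.78 (SE 0.20, 0.581-fold), with an adjusted p of 0.132 in edgeR without a term for experiment and 0.0180 with it (SE 0.14), and 0.0117 in the DESeq2 Wald test. In proliferating cells Piezo1 had 246, 266 and 214 CPM in controls and 254, 212 and 143 CPM with sh4, and these groups overlapped. Its log2 fold change there was -0.25 (SE 0.20), lower in 2 of 3 experiments. Quiescence itself gave 0.30 in control cells (SE 0.20, adjusted p = 0.311), higher in 3 of 3 experiments, and -0.23 in knockdown cells (SE 0.20, adjusted p = 0.464). The interaction for Piezo1 was -0.53, with a 95% interval from -1.16 to 0.09 and an unadjusted p of 0.0883 without and 0.0257 with the term for experiment. No gene of the 12406 passed for the interaction with either model (0% called), although 219 and 590 genes had a raw p below 0.05. The knockdown effect on Piezo1 is therefore not shown to differ between the states.

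Ctu2, a transfer RNA modification gene on the opposite strand, shares 2441 of the 9935 exon bases of Piezo1. The log2 fold change of Ctu2 with knockdown in quiescent cells was 0.23 (SE 0.17, adjusted p = 0.657), and its part in the Piezo1 counts was not tested. The kit preserves strand, but whether the counting used strand is not given in the sources used here. The summed epithelial markers were also higher in quiescent knockdown cells, at 22357 to 24122 CPM against 13146 to 19949 CPM in quiescent controls, and their part in the Piezo1 result was not tested.

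**Figure D2:**
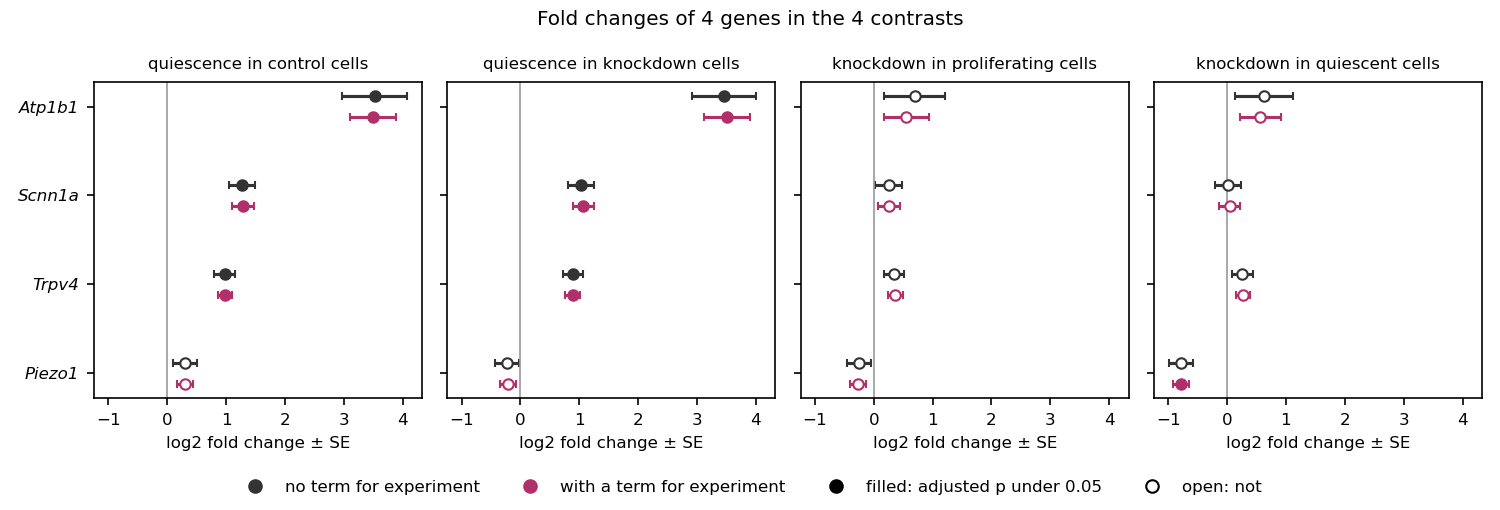
Log2 fold change ± SE of Atp1b1, Scnn1a, Trpv4 and Piezo1 in the 4 contrasts on a shared axis, without (dark grey) and with (red) a term for experiment, filled where the adjusted p is under 0.05. The 3 genes that rose with quiescence are filled in both models, and Piezo1 in quiescent cells is filled only with the term for experiment, at -0.78.

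Trpv4 and Atp1b1 were higher with sh4 in all 6 within-experiment comparisons, but neither difference passed the threshold. The 6 comparisons are not independent, since both states come from the same experiments. The share of all genes with this pattern was not counted. For Trpv4 the 3 proliferating knockdown libraries, at 201 to 216 CPM, lay above the 3 controls, at 121 to 195 CPM. How many of all genes separate in this way was not counted. Trpv4 did not pass the threshold there, as 0.0242% of all genes did. Its log2 fold change was 0.35 (SE 0.18, 95% interval -0.04 to 0.73) in proliferating cells and 0.26 (SE 0.18, 95% interval -0.12 to 0.65) in quiescent cells. With a term for experiment the values for Trpv4 were 0.37 (SE 0.12) and 0.27 (SE 0.12). The edgeR test with that term gave unadjusted p of 0.0134 and 0.0498, and adjusted p of 0.948 and 0.245. Experiment 9 gave the largest difference for Trpv4 in both states, 0.74 and 0.44.

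For Atp1b1 the log2 fold change with sh4 was 0.69 (SE 0.52, 95% interval -0.45 to 1.83) in proliferating cells and 0.62 (SE 0.49, 95% interval -0.46 to 1.71) in quiescent cells. In proliferating cells this rested on experiment 9, at 1.25, beside 0.06 and 0.16 in experiments 5 and 7. Without the proliferating knockdown library of experiment 9 the fitted value was -0.04. Scnn1a gave 0.25 (95% interval -0.24 to 0.74) in proliferating cells and 0.01 (95% interval -0.48 to 0.50) in quiescent cells, where experiment 7 gave -0.46 and experiments 5 and 9 gave 0.26.

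**Figure D3:**
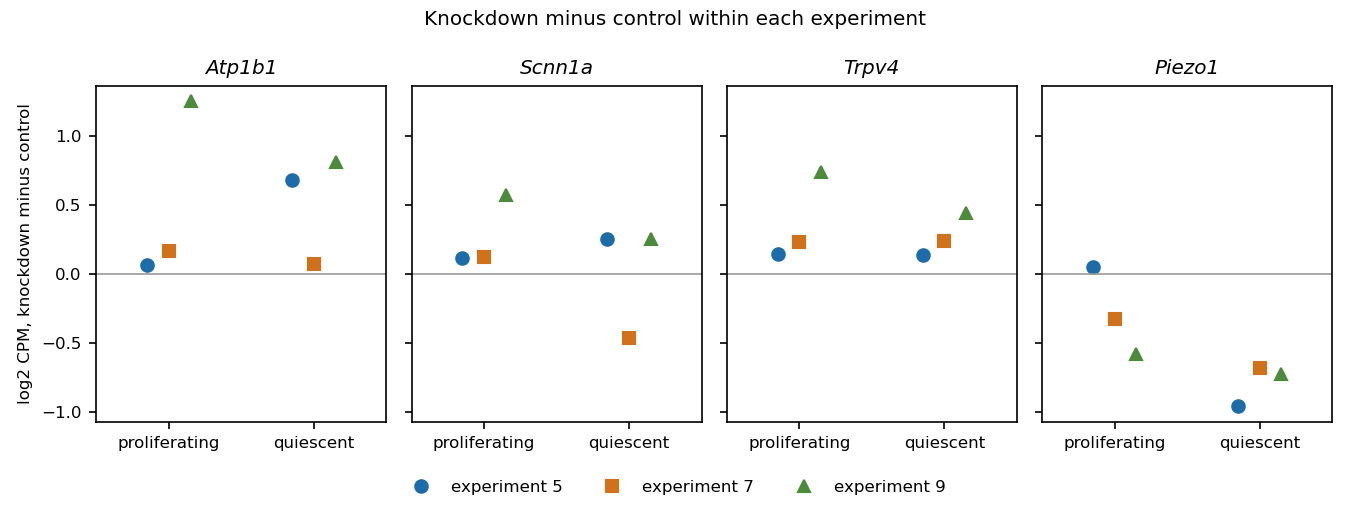
Knockdown minus control within each experiment, in log2 CPM (prior count 2), for Atp1b1, Scnn1a, Trpv4 and Piezo1 in proliferating and quiescent cells. All 6 points lie above 0 for Atp1b1 and for Trpv4, and the 3 quiescent points of Piezo1 lie between -0.96 and -0.68.

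Aqp3, Piezo2 and Slc14a1 were scarce in every group. Aqp3 (chr4:41092722-41098183, minus strand) had 16, 1 and 12 counts in proliferating controls, 13, 1 and 14 in proliferating knockdown cells, 3, 0 and 6 in quiescent controls and 9, 0 and 5 in quiescent knockdown cells, in the order of experiments 5, 7 and 9. Its counts followed the experiment, with at most 1 count in each of the 4 libraries of experiment 7. Within experiments 5 and 9 the quiescent libraries were the lower ones with either hairpin. The log2 fold change with quiescence in control cells was -1.50 (SE 1.23), with an adjusted p of 0.416 without a term for experiment and 0.0461 with it (SE 0.52). Without single libraries the value for Aqp3 ran from -2.38 to -0.91, with no term for experiment.

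Piezo2 (chr18:63010213-63387183, minus strand), the channel better known from sensory neurons and Merkel cells, had 1, 0 and 7 counts in proliferating controls and 1, 0 and 5 in proliferating knockdown cells. In quiescent cells it had 0, 0 and 3 counts with the control hairpin and 0, 1 and 1 with sh4. Most of its counts came from experiment 9. Slc14a1 (chr18:78100091-78142119, minus strand) had 1 count in all 12 libraries together, in the proliferating control of experiment 9. Over the 3 libraries of quiescent controls, its count of 0 has a floor of 3 counts, or 0.0630 CPM, and an exact 95% Poisson upper limit of 0.0775 CPM, so the urea transporter was not detectable at this depth.

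**Figure D4:**
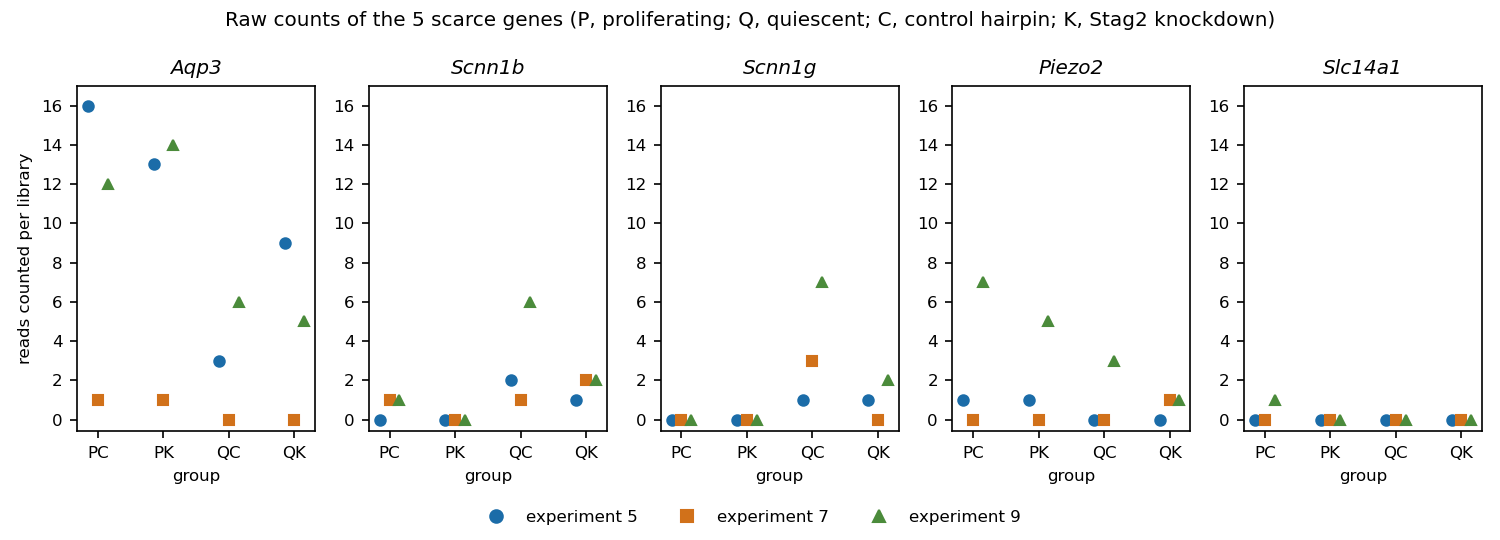
Raw counts per library, on a linear axis, of the 5 genes with at most 16 counts, by group and experiment. Aqp3 reaches 16 counts in experiment 5 and at most 1 in experiment 7, Scnn1b and Scnn1g have most of their counts in quiescent controls, and Slc14a1 has a single count.

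The order of the 4 abundant genes depended on the state. Per kilobase of the longest annotated transcript, proliferating controls had 50.3 ± 11.8 CPM of Trpv4, 38.7 ± 11.5 of Scnn1a, 29.4 ± 3.20 of Piezo1 and 4.62 ± 1.37 of Atp1b1 (SD, n = 3). Neighbours among the first 3 lay within their spread, and Atp1b1 was far below them. In quiescent controls the order was Trpv4 at 99.1, Scnn1a at 93.6, Atp1b1 at 53.1 and Piezo1 at 36.3, and Trpv4 and Scnn1a again lay within their spread. In quiescent knockdown cells Atp1b1, at 81.9 ± 41.2, overlapped Scnn1a at 94.3, and Piezo1 was lowest at 21.1. With the median transcript length in place of the longest, Piezo1 moved to first place in proliferating controls, at 84.5, and Atp1b1 to first place in quiescent controls, at 220.0, so the order between genes holds only for a given length.

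The genes that pair with Atp1b1 in the sodium pump were taken from a list of 13 other subunits and FXYD regulators, of which 11 had any count and 6 were tested. The alternative beta subunit Atp1b3 fell with quiescence from 115 ± 3.31 to 65.8 ± 6.05 CPM in control cells (log2 -0.81, SE 0.13, adjusted p = 0.00207). In knockdown cells it fell from 96.8 to 44.5 CPM (log2 -1.12, SE 0.13, adjusted p = 0.000599). Atp1b1 and Atp1b3 thus moved in opposite directions in every experiment.

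Per kilobase, Atp1b1 made up 4.98, 8.08 and 9.08% of the sum of both beta subunits in proliferating controls and 62.6, 50.2 and 69.4% in quiescent controls. With sh4 the share was 5.83, 10.2 and 23.7% while proliferating and 78.8, 60.4 and 86.8% in quiescence. The share was higher with sh4 in all 6 pairs of libraries, but the ranges of the hairpins overlapped in both states. These shares are descriptions from values tested above.

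**Figure D5:**
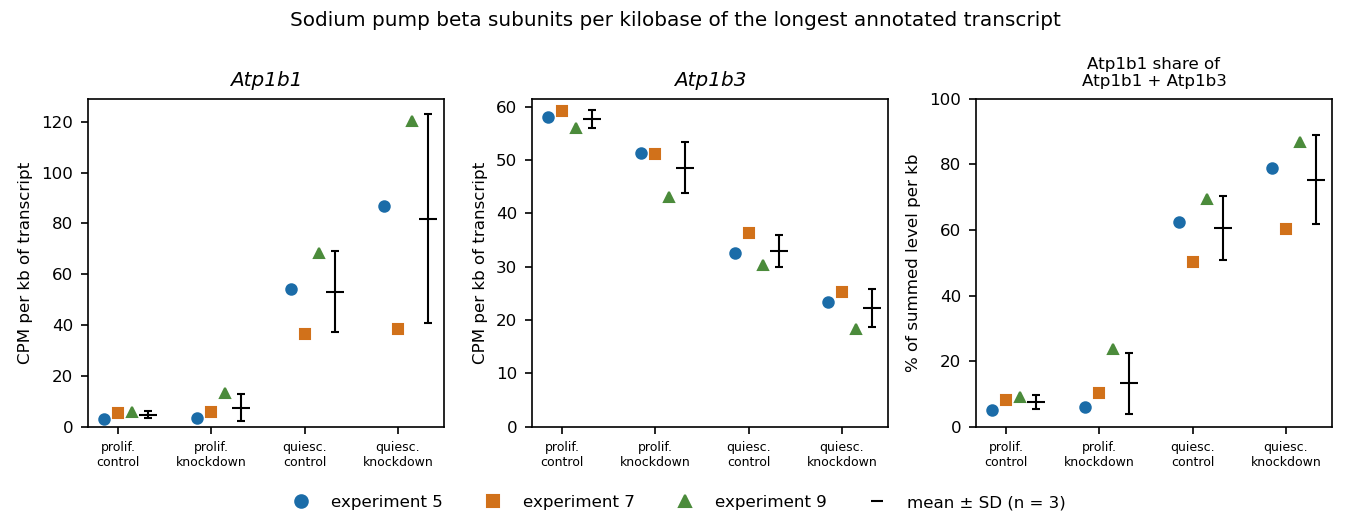
CPM per kilobase of the longest annotated transcript for the sodium pump beta subunits Atp1b1 and Atp1b3, and the Atp1b1 share of both beta subunits in percent, per library with the mean ± SD of 3. Atp1b1 is at 5 to 24% of both beta subunits in proliferating and at 50 to 87% in quiescent libraries.

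The FXYD proteins are small regulators of the pump. Fxyd3 rose with quiescence from 7.32 ± 2.97 to 35.3 ± 13.2 CPM in control cells (log2 2.27, SE 0.37, adjusted p = 0.00186), and its log2 fold change was 2.19 in knockdown cells (adjusted p = 0.00235). Fxyd5, also called dysadherin, fell from 7.28 to 1.66 CPM in control cells (log2 -2.13, SE 0.42, adjusted p = 0.00535). The list as a whole had 1 gene higher and 2 lower in control cells and 2 higher and 1 lower in knockdown cells. With a term for experiment the counts in knockdown cells became 2 and 2. Of all tested genes, 20.0% and 18.4% were called without that term, and 35.3% and 33.0% with it. The list's median log2 fold changes were 0.30 and 0.75, over 6 tested genes that moved in both directions. Over all tested genes the median was 0.00 in both, but the TMM scaling holds it near that value. Fxyd2, the gamma subunit of kidney pumps, was the other gene that rose in knockdown cells, from 2, 0 and 8 counts to 37, 23 and 128 (adjusted p = 0.0210), while the quiescent controls had 0, 0 and 2. That call was lost without the proliferating knockdown library of experiment 5 or 7 or the quiescent knockdown library of experiment 9 (adjusted p up to 0.103). Between quiescent knockdown and control cells, Fxyd2 had an adjusted p of 0.0703, Fxyd5 of 0.0781 (log2 1.93) and Atp1b3 of 0.104 (log2 -0.56). With a term for experiment these became 0.00297, 0.0201 and 0.0145. These 3 were singled out after their values were seen.

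Of 23 regulators and proteases of ENaC, all 23 were tested, and with quiescence 5 rose and 1 fell in control cells and 4 rose and 1 fell in knockdown cells. The medians were 0.50 and 0.42 (log2). With a term for experiment the counts were 10 and 2 in control cells and 10 and 1 in knockdown cells. The shares of all tested genes called were 20.0% and 18.4% without that term and 35.3% and 33.0% with it. Among the genes past the threshold without the term, the largest changes in control cells were those of the membrane protease Tmprss2, from 111 to 259 CPM (log2 1.23, adjusted p = 0.0279), and of Nedd4l, the ubiquitin ligase that removes ENaC from the membrane, from 127 to 295 CPM (log2 1.22, adjusted p = 0.0136). The kinase gene Sgk3 fell from 26.6 to 15.0 CPM (log2 -0.82, adjusted p = 0.0108). Spint1, an inhibitor of membrane proteases, rose from 163 to 271 CPM (log2 0.73, adjusted p = 0.0332). The call for Tmprss2 was lost without the proliferating control of experiment 7 or 9 or the quiescent control of experiment 5 (adjusted p up to 0.105), that for Spint1 without any control library except the proliferating one of experiment 5 (up to 0.125), and that for Sgk3 without the proliferating control of experiment 7 (0.0503).

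The list of other mechanosensory, TRP and acid-sensing channels had 16 of 31 genes tested, with 3 higher and 2 lower with quiescence in control cells and 4 higher and 3 lower in knockdown cells. Its medians were 0.13 and 0.28 (log2), and with the experiment in the model, 4 genes were higher and 2 lower in control cells and 7 higher and 4 lower in knockdown cells. The shares of all genes called were again 20.0% and 18.4%, and 35.3% and 33.0% with the experiment in the model. Trpa1, a channel for irritants, fell from 10.4, 6.46 and 10.3 CPM to 0.414, 0.183 and 1.01 CPM (log2 -4.05, SE 0.80, adjusted p = 0.00537), opposite in direction to Trpv4, and the log2 value for Trpa1 was -4.91 without the quiescent control of experiment 9. Kcnk2, the stretch-activated potassium channel TREK-1, fell from 7, 12 and 27 counts to 0, 1 and 0 (adjusted p = 0.0116). Pkd2, polycystin 2, rose (log2 0.86, adjusted p = 0.0123, and 0.0518 without the proliferating control of experiment 9), as did the potassium channel gene Kcnk1 (log2 0.73, adjusted p = 0.00105).

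Among 12 other aquaporins and urea transporters, 3 were tested and 1 fell in each contrast of the states: Aqp8 had 20, 36 and 59 counts in proliferating controls and 0, 0 and 1 in quiescent controls (adjusted p = 0.00505). The list's medians were -0.75 and -1.01 (log2). Among 17 genes of ATP release and purine reception, 11 were tested, and without a term for experiment only Nt5e passed, lower with quiescence in control and in knockdown cells. Nt5e encodes the ectoenzyme CD73, which makes adenosine from AMP, and it fell from 49.2 ± 2.71 to 11.0 ± 1.05 CPM (log2 -2.16, SE 0.20, adjusted p = 7.24e-05). The medians of that list were -0.06 and -0.10 (log2). With the experiment in the model, 1 gene was higher and 2 lower in control cells, and 1 higher and 3 lower in knockdown cells. For both lists, the shares of all tested genes called were 20.0% and 18.4%, and 35.3% and 33.0% with the experiment in the model.

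Of 14 other ion transport genes of the urothelium, 12 were tested, with 2 higher and 2 lower in control cells and 2 higher and 1 lower in knockdown cells, and medians of 0.39 and -0.13 (log2). With a term for experiment these counts were 5 and 2 in control cells and 3 and 2 in knockdown cells. Of all tested genes, 20.0% and 18.4% were called without that term, and 35.3% and 33.0% with it. The potassium channel gene Kcnj15 rose (log2 2.35, adjusted p = 0.0252), and the anion exchanger gene Slc4a2 rose (log2 0.51, adjusted p = 0.0264). The calcium-activated potassium channel gene Kcnn4 fell (log2 -1.03, adjusted p = 0.0121), and so did Ano1, a calcium-activated chloride channel (log2 -0.92, adjusted p = 0.0140). The call for Kcnj15 was lost without the proliferating control of experiment 7 or 9 or the quiescent control of experiment 5 (adjusted p up to 0.0981), and that for Slc4a2 also without the quiescent control of experiment 9 (up to 0.111). The log2 value for Kcnj15 was 3.13 without the proliferating control of experiment 5.

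With knockdown, no gene of the 6 lists passed in proliferating cells, and 1 did in quiescent cells without a term for experiment. That gene was Clcn3, a chloride-proton exchanger of endosomes, which had 229, 219 and 175 CPM in quiescent controls and 120, 125 and 87.9 CPM with sh4. The groups did not overlap, and the share of all genes that separate in this way was not counted. The log2 fold change was -0.90 (SE 0.16, adjusted p = 0.0363, and 0.00599 with the term). The call was lost without any 1 of 7 of the 12 libraries, with adjusted p up to 0.181. These were both proliferating libraries of experiment 7, the 3 quiescent controls and the quiescent knockdown libraries of experiments 5 and 9. With the term for experiment, 10 of the 71 tested genes of the lists passed in quiescent cells, where 3.55% of all genes did. The ENaC list had 1 of them higher and 1 lower, and the sodium pump list 2 higher and 1 lower. The list of other mechanosensory channels had 2 lower, and that of other ion transport 3 lower. Those of the ENaC list were the glucocorticoid receptor gene Nr3c1 (log2 -0.65, adjusted p = 0.0226) and the protease gene Tmprss4 (log2 1.60, adjusted p = 0.0114). These 2 are examples from the 10, and neither passed without the term. The interaction gave none in any list.

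The genes whose log2 CPM was most like that of each tested channel gene over the 12 libraries were found by Pearson's r. They were Serpinb9b (0.978) and Fbxo21 (0.974) for Atp1b1, Sorbs2 (0.964) and Slc15a4 (0.962) for Scnn1a, and Rnf122 and Mapre3 (both 0.986) for Trpv4. Piezo1 was most like Acbd3 (0.968) and Kirrel (0.965), and Aqp3, with its low counts, was most like Ctsl (0.947) and Mpdu1 (0.940). The 12 points share the 3 experiments and the scaling of each library, and these values are descriptions. Spearman's rho put other genes first for all 5 channel genes.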

How the data were processed

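The authors deposited raw counts, whole numbers of reads per gene symbol and library. Per the submitters' processing notes, the tools were Bowtie, TopHat, HTSeq and DESeq2 and the build mm10, while settings, annotation and the strand mode of the counting are not given in the sources used here. Per the labels' protocols, a stranded kit was used on polyadenylated RNA, with ERCC spike-ins added beforehand. No level here was scaled by the spike-ins, so all levels are relative and amounts per cell were not tested. The labels do not say that experiments were separate cultures, so p-values measure the spread between these libraries.

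Counts were fitted in R 4.3.3 with edgeR 4.0.16: filterByExpr with a minimum count of 10, TMM scaling, 4 group means over 12 libraries, quasi-likelihood tests, and Benjamini-Hochberg adjustment over 12406 genes at 0.05. The 5 contrasts were knockdown in each state, quiescence with each hairpin, and their interaction. The same fit was tested on simulated counts that held no effect of experiment, so that check does not cover variation shared within an experiment. No pair of replicates agreed within sampling noise (chi-square per degree of freedom 36.6 to 99.7). The pairing comes from the experiment number, which the labels give as a batch. Deviations of same-numbered libraries from their group means correlated with a mean r of 0.53 (18 pairs, 0.23 to 0.79). Subtracting the group means largely ties the mean r of other pairs, -0.26, to that value, so it is not separate evidence. A fit with the experiment as a block lowered the common biological coefficient of variation from 0.261 to 0.161. That fit is printed where it changes the call of a listed channel gene or the count of a list, and beside some other values. DESeq2 1.42.0, other size factors, filters, subsets of libraries and leaving out each library were tried.

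Gene symbols and positions came from GENCODE M21 and RefSeq on GRCm38. CPM per kilobase used the longest annotated transcript. Named genes are the 9 listed genes and up to 4 per list with the largest change with quiescence in control cells past the threshold. Any list gene past it with knockdown without a term for experiment, the 2 genes most like each tested listed gene, and Stag2 are also named. Outside this rule are Fxyd2, Nr3c1, Tmprss4 and the cell type markers, and Ctu2 and Nme7, which share exon bases with listed genes. The members and lists were chosen with earlier results of these data known.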

Additional observations from a re-analysis of the deposited data

How the results depend on the processing

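The rises of Atp1b1, Scnn1a and Trpv4 with quiescence passed the threshold under every alternative run, so the number of listed genes called stayed at 3 in both contrasts without any single library. In quiescent cells 1 listed gene, Piezo1, was called for knockdown with the replicate block and in DESeq2. Of 437 fold changes of listed genes under alternatives, 3 gained a call (Piezo1 in those 2 and Aqp3 with the block), none lost one, and 23 changed sign, all of them uncalled. Those were Scnn1a with knockdown in quiescent cells, at -0.0085 without a filter and -0.0023 with only that contrast's libraries, the interaction of Atp1b1, at 0.017 with the block, and values without single libraries. Without single libraries the ranges for knockdown were -0.54 to 0.54 (Aqp3) and -0.041 to 1.06 (Atp1b1) in proliferating cells, and -0.34 to 1.22 (Aqp3) and -0.070 to 0.16 (Scnn1a) in quiescent cells. For the interaction they were -0.33 to 1.23 (Aqp3), -0.24 to 0.090 (Trpv4) and -0.45 to 0.66 (Atp1b1).

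The number of all genes called moved more. For knockdown in proliferating cells, 3 became 12 in DESeq2, 1 with only those libraries and 1 to 3 without single libraries. For knockdown in quiescent cells, 54 became 440 with the block, 390 in DESeq2 and 5 to 64 without single libraries. For quiescence in control cells, 2481 became 4374 with the block, 1582 with only those libraries and 1394 to 3078 without single libraries. In knockdown cells 2279 became 4096 with the block and 1186 to 2408 without single libraries. The interaction had 0 genes, and 6 in DESeq2. The block accounts for shared variation between libraries of an experiment, and the cause of the other shifts was not tested.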
